A study of Mus musculus with 30 samples.

Results

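The 2000 strongest cohesin sites of wild-type (WT) mouse embryonic trunk are described here, out of 20061 RAD21 sites in WT, 19527 of them on autosomes. RAD21 is a subunit of the cohesin ring. Peak summits of the 4 RAD21 WT lists were linked within 150 bp, and a site needed a peak of all 4 lists over its median summit. Autosomal sites were ranked by the mean, over the 4 lists, of the percentile of their fold enrichment within each list, and the 2000 highest were taken. The RAD21 values of the 4 WT libraries therefore chose the sites, and they are given as a description.

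CTCF and RAD21 were mapped at E10.5 by ChIPmentation, an immunoprecipitation of chromatin in which Tn5 transposase adds the adapters on the beads. The mutant embryos were homozygous for 1 of 6 alleles with CTCF binding sites (CBS) of the Hoxd gene cluster mutated in cis. For RAD21 there were 3 libraries of Del(CBS1), 2 of each longer allele, named Del(CBS1-2) to Del(CBS1-5) after the sites mutated, 1 of Del(CBS2) and 4 of WT. For CTCF there were 3 libraries of Del(CBS1) and 2 of each longer allele other than Del(CBS1-2), which had 1, with 1 of Del(CBS2) and 3 of WT. All embryos were of strain B6CBAF1, and the WT ones were littermates of mutants. The trunk is a mixture of tissues, so binding in fewer cells and less binding per cell cannot be told apart, and peak lists hold no expression with which to check the tissue. Replicates are numbered libraries that the labels do not tie to separate embryos, so p-values measure the spread between libraries.

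Cohesin is loaded onto chromatin and extrudes DNA loops, and CTCF bound to its motif can stop the ring, so that cohesin gathers at CTCF sites. The stop depends on the direction of the motif, because the N-terminal end of CTCF faces the side from which the ring arrives, the 3′ side of the motif. In the Hoxd cluster, CTCF sites lie among genes that pattern the body axis and limbs.

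The sequences below are those of sites that fell in the window from 250 bp before to 50 bp after a gene start, the only sequence used here (RefSeq promoter table, GRCm38.p6, the mm10 assembly). Capitals mark the match to the CTCF core motif, CC, any 3 bases, AG, any 2 bases and GGC, and each sequence is written 5′ to 3′ on the strand of the motif. The first 6 are the highest ranked of the 13 sites with a match within 50 bp of a summit, and the last is the only one whose RAD21 summit lay on the 5′ side in the median of the WT libraries.
Wdr38, chr2:38998059-38998110, minus strand: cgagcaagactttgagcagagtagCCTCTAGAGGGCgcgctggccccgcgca
C330018A13Rik, chr5:116123495-116123554, plus strand: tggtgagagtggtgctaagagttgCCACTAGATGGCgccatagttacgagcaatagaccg
Gm46796, chr3:6106783-6106842, minus strand: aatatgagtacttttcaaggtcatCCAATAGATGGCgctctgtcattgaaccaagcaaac
E330013P04Rik, chr19:60144511-60144570, minus strand: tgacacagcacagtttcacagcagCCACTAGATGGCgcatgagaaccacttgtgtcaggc
Gm32898, chr10:94623748-94623807, plus strand: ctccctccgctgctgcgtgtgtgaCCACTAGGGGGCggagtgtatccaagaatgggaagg
Snrpe, chr1:133610411-133610470, minus strand: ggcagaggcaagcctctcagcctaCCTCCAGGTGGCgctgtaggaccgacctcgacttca
Psmc4, chr7:28050298-28050342, plus strand: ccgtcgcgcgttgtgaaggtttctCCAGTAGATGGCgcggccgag

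At the Wdr38 site, 237 bp before the gene start, RAD21 fold enrichment over the local background was 16.3 ± 2.01 (SD, n = 4 WT libraries) and CTCF fold was 17.1 ± 2.83 (SD, n = 3 WT libraries). The median WT summit lay 8 bp to the 3′ side of the motif centre for RAD21 and 13.5 bp to the 5′ side for CTCF (written as 8 and -13.5). At Gm46796 these positions were 24 for RAD21 and 3.5 for CTCF, and at Snrpe, which encodes a core protein of the spliceosome, 13.5 and 6.5. At Psmc4, which encodes an ATPase subunit of the proteasome, they were -12 and -4.5. All 7 sites had a peak in each of the 16 RAD21 and 14 CTCF lists.

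Along the motif, RAD21 summits lay to the 3′ side of CTCF summits. Over the 13 sites, the median RAD21 summit of a library lay 17.0 ± 6.0 bp to the 3′ side of the motif centre (SD, n = 16 libraries, 7.5 to 27.5). The median CTCF summit lay at -1.64 ± 7.09 bp (SD, n = 14 libraries, -13.5 to 12.5). The difference of 18.6 bp exceeded the spread between libraries (permutation test, 2-sided, 100000 resamples, p = 2e-05, the smallest they can give). With matches up to 100 bp from a summit the difference was 18.6 bp at 17 sites, and at 188 weaker RAD21 sites in promoter windows it was 13.7 bp.

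**Figure D1:**
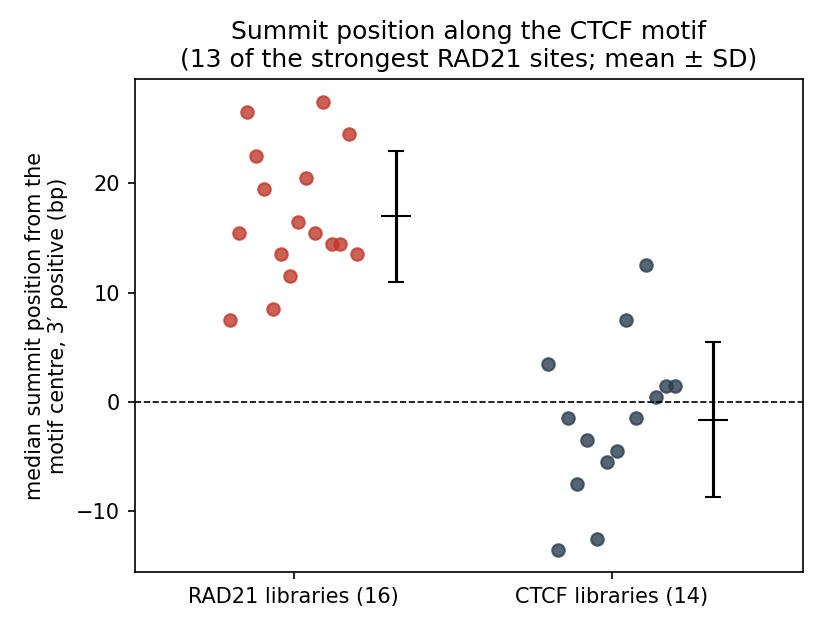
Position of the median summit along the CTCF motif for 16 RAD21 libraries (left) and 14 CTCF libraries (right), over 13 of the strongest RAD21 sites. Each point is a library, the bars are the mean and SD, and 0 is the motif centre; all RAD21 libraries lie at 7.5 bp or more, and the CTCF libraries lie on both sides of 0.

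The motif was searched on both strands. It was present somewhere in the window of 18 of the 49 strongest sites in a promoter window (36.7%), of 260 of the 598 weaker sites (43.5%), and in 2828 of all 32851 promoter windows of the same length (8.61%). No match says only that these letters are not in the window.

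The RAD21 libraries fell into sets that did not follow genotype, and the sets showed at tRNA genes, short genes transcribed by RNA polymerase III. Of 391 autosomal tRNA genes, 181 to 268 had a RAD21 peak over their centre in Del(CBS1) replicate 1, both Del(CBS1-2) libraries, Del(CBS1-3) replicate 1, Del(CBS2) and WT replicates 1 to 3. In the other 8 libraries 6 to 30 did. These were Del(CBS1) replicates 2 and 3, Del(CBS1-3) replicate 2, WT replicate 4 and all libraries of the alleles with 4 or 5 mutated sites. CTCF peaks covered 18 to 49 tRNA genes in the 14 CTCF libraries.

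The tRNA sites bear on which sites count as strongest. Chosen from WT replicates 1 to 3 alone, the 2000 strongest held 9 sites that WT replicate 4 lacked, and all 9 lay within 35 bp of a tRNA gene. The highest of them by mean percentile in those 3 lists, 99.8, was the site at n-TMcat11, 235 bp before the start of Ilf2 (chr3:90475966). It was also the only one of the 9 with CTCF peaks, at folds of 2.92 to 11.1. RAD21 fold at the 9 sites was 10.4 to 20.0 in WT replicates 1 to 3, and 8 of the 9 had no CTCF peak in any list. The rule of a peak in all 4 WT lists left them out: none of the 2000 sites lay within a tRNA gene, and 1 lay within 500 bp of one (0.05%, against 0.205% of the 17527 other sites). What sets the libraries apart was not tested. The comparison of mutant with WT RAD21 libraries is given below also within these sets, and the site-by-site RAD21 tests also with the set as a covariate.

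**Figure D2:**
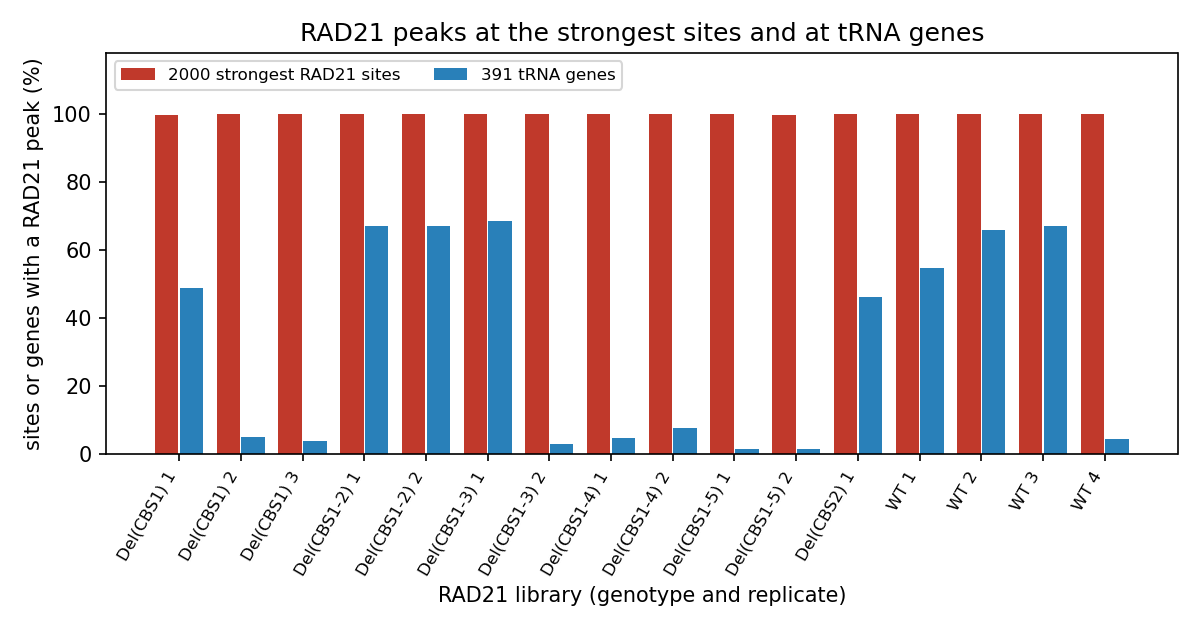
Share of the 2000 strongest RAD21 sites (red) and of 391 autosomal tRNA genes (blue) with a RAD21 peak, for 12 mutant libraries and, at the right, 4 WT libraries. The strongest sites are at 99.9% or more in every library, and tRNA genes are at 46.3% to 68.5% in 8 libraries and at 1.53% to 7.67% in the other 8.

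Within the 2000 sites, the mean WT percentile ran from 92.2 to 99.996 with a median of 95.6. Mean WT fold had a median of 13.97 and a range of 12.5 to 29.3, against a median of 7.46 over the other 17527 sites. The first 5 sites stood above the rest of the first 15, with mean folds of 26.8 to 29.3, against 18.9 to 22.8 for ranks 6 to 15. No list of regions prone to artefact signal was applied here, and none of the libraries used was an input. Regions of that kind are thus not set apart, also among the first 15. Whether the first 5 sites lie in such regions was not tested. By -log10 q the highest site was chr2:98667165 (rank 201), chosen after its values were seen. Its WT mean was 1925, against 526 at rank 1, and what sets it apart was not tested. At the border, the mean percentiles of ranks 1996 to 2000 were 92.2, and so were those of ranks 2001 to 2005 (92.175 to 92.172 inside, 92.170 to 92.158 outside). The last site inside lay 2256 bp from Arf2 with a fold of 12.5 ± 1.01, and the first outside lay 777 bp from Boc with a fold of 12.8 ± 2.09 (SD, n = 4 each).

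The site ranked first lay within the lncRNA gene Gm33838 (chr9:35305424). Its RAD21 fold was 24.1 at the lowest, 28.9 at the median and 31.6 at the highest of 12 mutant libraries, and 24.9, 30.3, 29.3 and 30.4 in the 4 WT libraries. Folds are on the scale of each list (the median over the 2000 sites was 11.3 to 16.9 in mutant and 13.02 to 16.4 in WT lists), so groups are set side by side by percentile. Percentiles in turn differed with list length. The median over the 2000 sites was 91.8 in the shortest RAD21 list (16676 peaks) and 97.3 in the longest (48102 peaks). At this site the percentile was 99.96 or more in every mutant and WT library. Its CTCF fold was 24.9 to 31.5 in 11 mutant libraries and 24, 28.3 and 28.1 in WT.

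The site ranked second lay within Lars2 (chr9:123462011), which encodes the mitochondrial leucyl-tRNA synthetase. RAD21 fold there was 20.8 at the lowest, 28.4 at the median and 36.6 at the highest of the mutant libraries, and 29.0, 27.6, 27.6 and 33.1 in WT. The third lay within Chl1 (chr6:103649187), a cell adhesion gene of neurons, with 25.9, 29.6 and 34.5 at the lowest, median and highest mutant library and 32.8, 26.8, 27.7 and 27.1 in WT. The percentile was 99.70 or more at Lars2 and 99.988 or more at Chl1 in every mutant and WT library.

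Of the first 15 sites, those in Gm1604a and Gm16271 lay within lncRNA genes, pseudogenes were nearest at Gm7446 and Gm5960, and the one at rank 5 lay 109344 bp from the nearest gene, Gm8797. Those within protein-coding genes, beyond Lars2 and Chl1, were in Cdk8, the kinase of the Mediator complex, in Cmss1 and Filip1l, Alg14, Aida and Sdccag8. The sites near Chrm3 and Gmpr lay 28489 and 29975 bp away. All 15 had a peak in each of the 16 RAD21 and 14 CTCF lists.

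Each of the 2000 strongest RAD21 sites had a CTCF peak in all 3 WT CTCF lists (exact 95% interval of the share 99.8% to 100%), against 98.5% of the other 17527 sites (98.3% to 98.7%). Intervals here are Clopper-Pearson and cover counting error only, and neighbouring sites are not independent. In all 14 CTCF lists a peak was found at 1998 of the 2000 sites and at 93.6% of the others. Of the other sites, 43 had a CTCF peak in no list. Of the strongest, 0 did, which allows a share of up to 0.184% under the rule of a peak in all 4 RAD21 WT lists. Chosen without RAD21 WT replicate 4, 99.45% had a CTCF peak in all 3 WT CTCF lists. That choice held the 9 tRNA sites described above, most of them without a CTCF peak in any list.

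CTCF itself was strong there. CTCF percentiles were not used to choose the sites, so they were compared across the 14 CTCF libraries. The median CTCF percentile was 94.8 at the strongest RAD21 sites and 77.1 at the others, means over libraries. The difference was 17.7 ± 3.85 percentile points (SD, n = 14), it ran from 11.5 to 24.3, and it was positive in 14 of 14 libraries (exact 2-sided sign-flip permutation test, p = 0.000122, the smallest it can give). With percentiles over RAD21 sites that had CTCF in all 14 lists it was 40.3 points. In the 3 WT libraries alone the difference was 16.6, where the exact permutation test cannot go below p = 0.25.

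**Figure D3:**
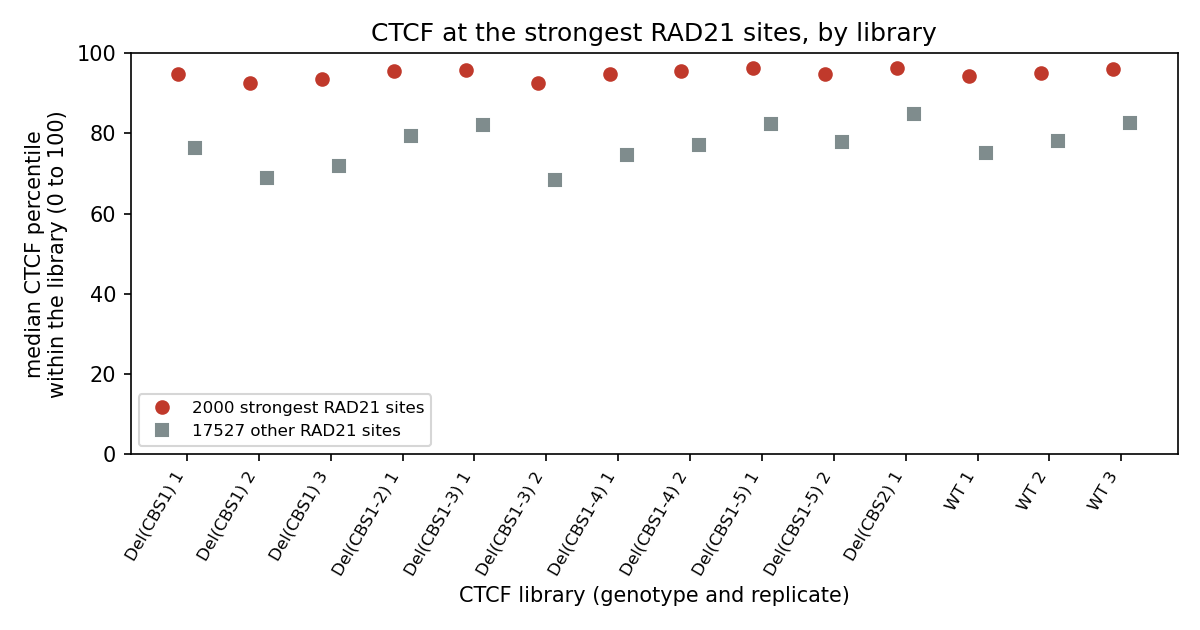
Median within-library CTCF percentile of the 2000 strongest RAD21 sites (red circles) and the 17527 other RAD21 sites (grey squares) in 11 mutant libraries and, at the right, 3 WT libraries. In all 14 libraries the strongest sites lie above the others, by 11.5 to 24.3 points.

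A mean WT CTCF percentile of 90 or more was found at 1522 of the strongest RAD21 sites (76.1%) and 19.8% of the others. The 2 rankings still differed. Of the 2000 strongest RAD21 sites, 854 (42.7%) lay within 150 bp of one of the 2000 strongest CTCF sites, against 5.77% of the other RAD21 sites. Of the 2000 strongest CTCF sites, 1865 had a RAD21 site. Across sites, Spearman's rho between mean WT RAD21 and CTCF percentile was 0.36 over the 2000 sites and 0.57 over all 19527. These points share libraries, and the first range is narrow because the rule cut it.

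The lowest CTCF among the strongest RAD21 sites was at Tekt4, Vwf and near LOC102637806, chosen after their values were seen. At the site within Tekt4 (chr17:25470116), a gene for a filament protein of cilia, the mean WT CTCF percentile was 41.6. RAD21 fold was 10.2 at the lowest, 12.3 at the median and 15.6 at the highest mutant library, and 14.7, 12.2, 13 and 16.1 in WT. CTCF fold was 4.31 to 8.32 in the mutant libraries and 6.39, 6.42 and 4.33 in WT. Over all 14 CTCF libraries its CTCF percentile ran from 25.8 to 62.3. Within Vwf, the gene for von Willebrand factor, the CTCF percentile was 43.7 and the CTCF fold 5.93 ± 0.465 (SD, n = 3 WT libraries), beside a RAD21 fold of 12.8 ± 2.23 (SD, n = 4 WT libraries).

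CTCF and RAD21 summits lay close together. The median distance between the RAD21 median summit and the median WT CTCF summit was 17 bp at the strongest sites and 21 bp at the others. It was at most 50 bp at 98.3% of the strongest sites and 89.0% of the others, and at most 100 bp at 1999 of the 2000. By single CTCF library the median distance was 16 to 25 bp at the strongest sites and 20 to 35 bp at the others, and it was smaller at the strongest sites in each. The largest distances from RAD21 to CTCF were 113 bp towards higher coordinates at a site 912 bp from 1700001O22Rik, 95 bp at one 193 bp from the tRNA gene n-TLtag1, -94 bp within Gm29677, -76 bp near Gm6300 and 73 bp near Skap2. At the site near 1700001O22Rik the CTCF fold of 11.9 ± 0.474 (SD, n = 3) and RAD21 fold of 14.04 ± 2.01 (SD, n = 4) in WT lay inside the ranges of the set.

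Summits in the 12 mutant RAD21 lists were not used by the rule. Their median distance from the WT position was 12 to 19 bp at the strongest sites and 23 to 46 bp at the others. Within 50 bp lay 90.5% to 99.1% of the strongest sites and 52.9% to 82.3% of the others.

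The strongest sites lay away from gene starts somewhat more often than other RAD21 sites did. Of the 1921 strongest sites on chromosomes with a promoter table, 108 (5.62%; 4.63% to 6.75%) had a gene start within 1 kb, against 8.16% (7.75% to 8.58%) of 16926 others. The median distance to a start was 25272 bp at the strongest and 19848 bp at the other sites. Of the 2000, 904 (45.2%) lay within a gene, 714 (35.7%) within a protein-coding gene and 104 (5.2%) over 50 kb from any gene. Of the others these shares were 55.7%, 46.5% and 3.91%. No test was made over sites, which are not replicates.

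They were also more isolated from other CTCF sites. The ranking used fold over the local background, and whether nearby peaks or gene starts change that ratio was not tested. A second CTCF WT site lay within 1 kb at 3.15% of the strongest RAD21 sites and at 7.54% of the others, and within 10 kb at 34.1% and 47.7%. The nearest other strongest site was 5776 bp away at the closest and 345253 bp at the median, and 223 of 2000 had one within 50 kb. Joined at that distance, 1777 stood alone, 107 pairs formed and 3 runs held 3 sites. The runs lay at Gm34470 and Gm46983 on chromosome 6, beside Gm39035 on chromosome 7 and across Cuedc1, Mrps23 and Gm38534 on chromosome 11. By chromosome the strongest sites were 8.26% (chromosome 19) to 11.96% (chromosome 12) of the autosomal RAD21 sites, and 10.2% in all.

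Among gene groups, the Hox clusters held several of the strongest sites. In the Hoxa, Hoxb and Hoxc clusters 3 of 9 RAD21 sites within 5 kb of a gene were among the strongest. The site 208 bp from Hoxc10 (chr15:102966588) had RAD21 folds of 11.8, 14.2 and 18.8 at the lowest, median and highest mutant library and 17.2, 14.4, 14.6 and 15.2 in WT. The site between Hoxa7 and Hoxa9 (chr6:52221806) had 9.90, 13.5 and 15.6 in mutants and 14.2, 12.9, 15.6 and 14.7 in WT, and that near Hoxa13 (chr6:52257136) 7.69, 12.4 and 16.6 in mutants and 15.3, 12.9, 11.9 and 15.9 in WT. By percentile, mutants had 95.9 to 99.2 and WT 94.2 to 99.5 at Hoxc10, mutants 88.8 to 99.2 and WT 92.9 to 99.5 between Hoxa7 and Hoxa9, and mutants 65.5 to 98.9 and WT 93.6 to 98.1 near Hoxa13. The groups overlapped at all 3.

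Of 35 RAD21 sites at imprinted genes, 3 were among the strongest. They lay within Trappc9, within Airn, the lncRNA that silences Igf2r on the paternal chromosome, and at -3412 bp from the start of Plagl1, a zinc finger gene. Of 11 at genes of cohesin, its loaders and CTCF, 1 was, 3097 bp from Smc3, which encodes a subunit of the ring, with a fold of 13.7 ± 2.269 (SD, n = 4 WT libraries). None of the 11 sites at clustered protocadherins, 9 at neural tube, 7 at somite and muscle, 15 at limb and 4 at blood and globin genes was. Such shares stand beside the 10.2% of all sites, and the groups are small.

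The strongest sites kept a RAD21 peak in nearly every mutant library. Of the 2000, 1997 had one in all 16 lists, against 60.9% of the other sites. Each mutant list held 1998 to 2000 of them and 70.7% to 99.5% of the others. The lists were of unequal length, from 16676 peaks in Del(CBS1-5) replicate 2 to 48102 in Del(CBS2), and the share of other sites found was lowest in the 2 shortest, that one and Del(CBS1) replicate 1. The lists hold no read counts, so the depth behind them is unknown.

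**Figure D4:**
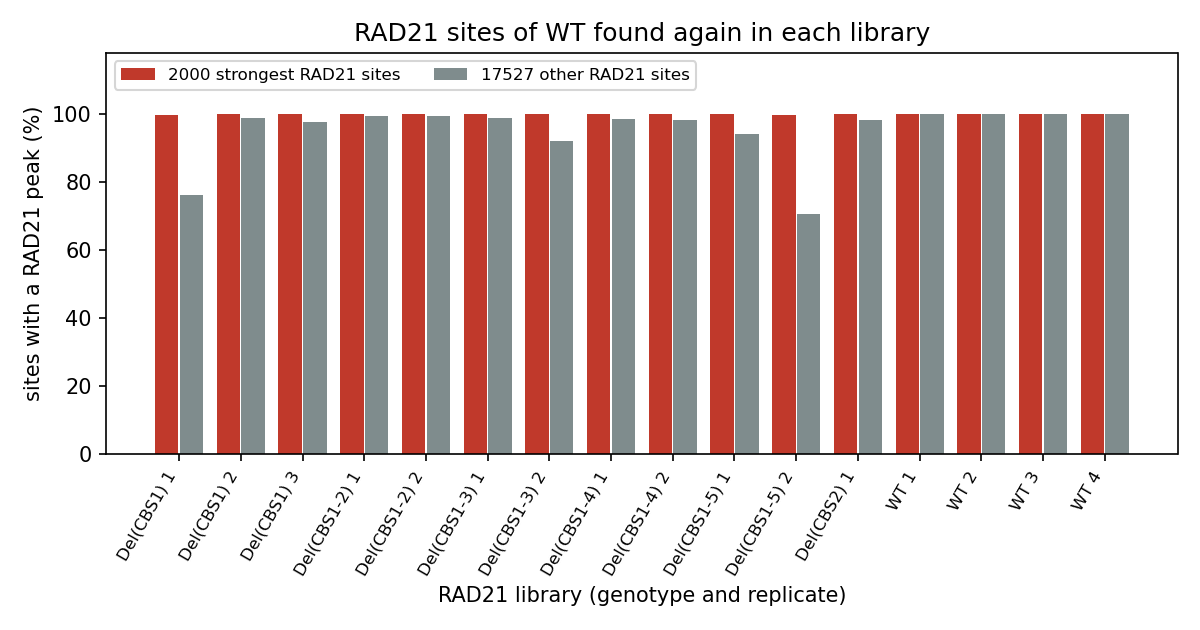
Share of the 2000 strongest RAD21 sites (red) and the 17527 other RAD21 sites (grey) with a RAD21 peak over their WT position, in 12 mutant libraries and, at the right, the 4 WT libraries that define the sites (100% by the rule). The strongest sites are at 99.9% or more everywhere, and the others fall to 70.7% in Del(CBS1-5) replicate 2.

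One of the 2000 sites, within Hoxd3 and Hoxd3os1, lacked a RAD21 peak in every library of the 5 alleles that include CBS1. Over all 19527 sites, 0.358% lacked a peak in all Del(CBS1) libraries. The share was 0.0973% for the allele with 2 mutated sites, 0.574% for 3, 0.394% for 4 and 4.22% for 5, and 1.52% for Del(CBS2), where 0 of the 2000 lacked one. For CTCF the same site was the 1 without a peak in all Del(CBS1) libraries, beside 0.789% of all sites, and the 1 for the allele with 5 mutated sites, beside 0.481%. For the alleles with 2, 3 and 4 mutated sites 0 of the 2000 lacked CTCF in all libraries, beside 0.656%, 0.512% and 0.835%, and for Del(CBS2) 0, beside 0.44%. The RAD21 rule required peaks in WT, so nothing is read from the WT side of the RAD21 counts.

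The Hoxd3 site (chr2:74715962, 168 bp inside the start of the antisense lncRNA gene Hoxd3os1) was the only one of 6 RAD21 sites of the HoxD window among the 2000, at rank 643. Its RAD21 fold was 19.6 in Del(CBS2) and 15.2, 13.7, 11.8 and 17.8 in WT, and no peak covered it in the 11 libraries whose genotype includes CBS1. Its CTCF fold was 17.6 in Del(CBS2) and 18.4, 12.5 and 14.2 in WT. No RAD21 peak was thus called there in any library with CBS1 mutated. By percentile, Del(CBS2) had 99.4 for RAD21, against 93.0 to 98.5 in WT, and 94.1 for CTCF, against 90.7 to 96.6 in WT.

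CTCF did not vanish from the neighbourhood of the Hoxd3 site. In each of the 10 CTCF libraries with CBS1 mutated, a weaker CTCF summit lay 184 to 395 bp towards higher coordinates, with folds of 2.84 to 7.58 and percentiles of 3.99 to 62.9 within its list. In Del(CBS1-2), Del(CBS1-3) replicate 1 and Del(CBS1-4) replicate 2 that peak was wide enough to cover the site, with folds of 7.58, 6.92 and 3.67. In Del(CBS2) and WT a single summit lay between 37 bp before and 10 bp after the site, and the peak reached 458 to 615 bp beyond it. RAD21 had a weak summit nearby in 3 of the 11 libraries with CBS1 mutated. It lay 255 bp away in Del(CBS1-2) replicate 2 (fold 3.18), 338 bp in Del(CBS1-3) replicate 1 (fold 2.49) and 451 bp in Del(CBS1-4) replicate 1 (fold 3.21).

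**Figure D5:**
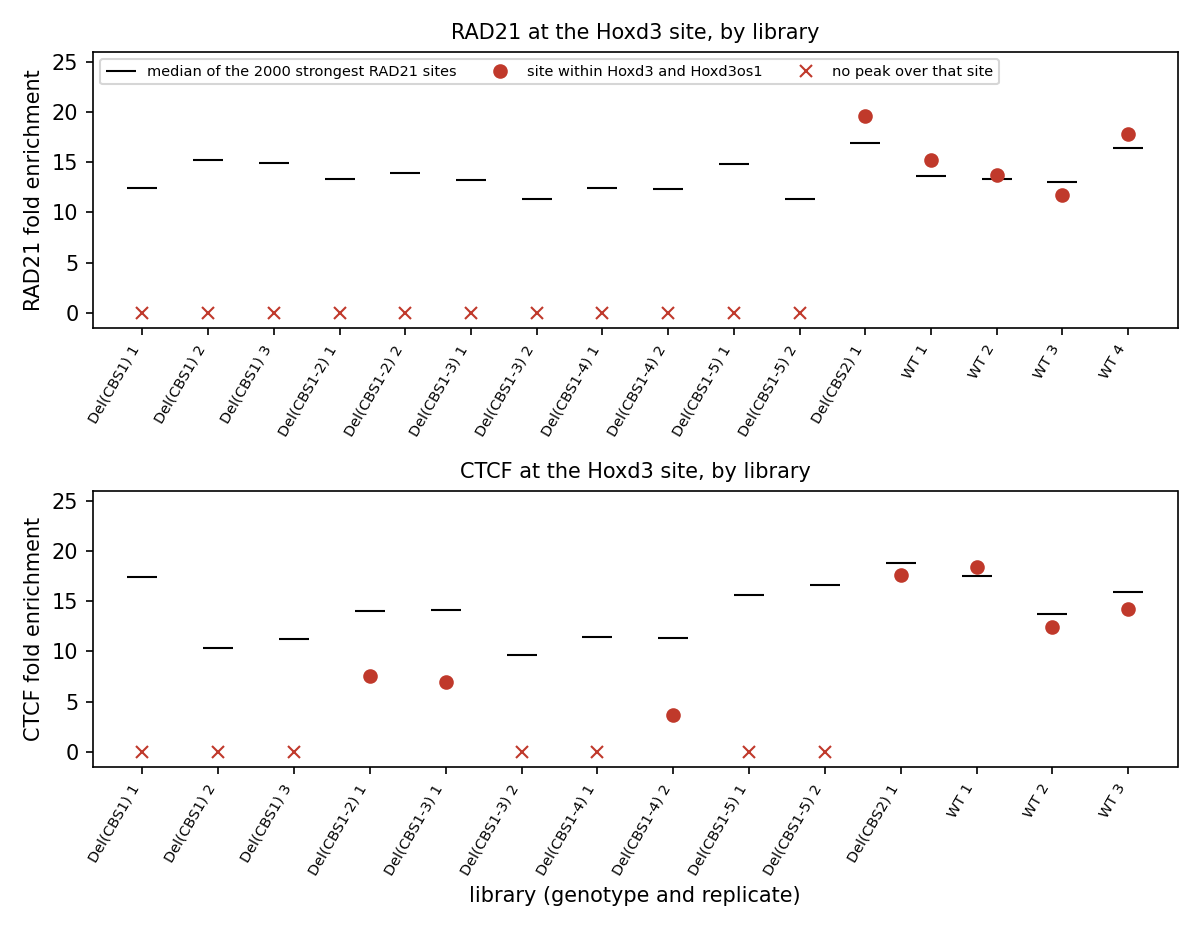
RAD21 (top) and CTCF (bottom) fold enrichment at the site within Hoxd3 and Hoxd3os1 by library, mutants at the left and WT at the right. Circles are the peak over the site, crosses mark libraries with no peak over it, and dashes are the library's median over the 2000 strongest sites; the 11 RAD21 libraries with CBS1 mutated have crosses, and Del(CBS2) and WT lie near the dashes.

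The other 2 sites not found everywhere each missed 1 RAD21 library. The site 4048 bp from Gm36117 (chr17:13044111) had no peak in Del(CBS1-5) replicate 2 but a fold of 14.3 in replicate 1. Its fold was 8.75 at the lowest and 20.3 at the highest of the 11 mutant libraries with a peak, and 12.8, 12.1, 13.6 and 16 in WT. The site at chr12:3109976, 54768 bp from Gm48310, lacked both RAD21 and CTCF peaks in Del(CBS1) replicate 1. In Del(CBS1) replicates 2 and 3 its RAD21 fold was 13.5 and 11.8 and its CTCF fold 12.3 and 14.3, and its RAD21 fold in WT was 9.72, 13.1, 14 and 17.7. Whether this region is prone to artefact signal was not tested.

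To compare mutant with WT libraries, the sites were chosen again from 3 of the 4 WT lists at a time. No library was thus read at sites it had chosen. Each WT value comes from a single choice, and each mutant value is a mean over the 4 choices. The permutation tests do not take this difference into account. Only the choice without WT replicate 4 holds the tRNA sites that it lacked, so the other WT libraries were not read at them. The median RAD21 percentile of the strongest sites was 95.7 ± 1.76 in mutant libraries (SD, n = 12) and 96.0 ± 1.17 in WT libraries (SD, n = 4). The lowest value, 91.6, was that of the shortest list and the highest, 97.3, that of the longest, so the spread is not free of list length. The difference of mutants minus WT, -0.301 points, lay within the spread between libraries (exact 2-sided permutation test over 1820 arrangements, p = 0.853). A RAD21 peak was found at 99.87 ± 0.079% of the sites in mutants and at 99.89 ± 0.225% in WT, a difference of -0.0188 points (exact permutation test, p = 0.914).

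The comparison of detection depended on WT replicate 4. Leaving it out, as a library and from the choice, turned the detection difference to -0.493 points (exact permutation test, p = 0.0176). The 9 tRNA sites were counted in the choice from WT replicates 1 to 3, and 7 of the 12 mutant libraries hold at most 1 of them. How much of the detection difference they make up was not tested. The sets of libraries were formed after seeing the data, by peaks at those sites, which 1 of the choices holds. Comparisons within the sets are thus given as a description. Within the 8 libraries with RAD21 at those sites, the percentile was 96.1 in 5 mutant and 95.9 in 3 WT libraries. The difference was 0.258 (exact permutation test, p = 0.893, the smallest it allows being 0.0357). Detection in those libraries differed by -0.045 points (exact permutation test, p = 0.143). In the other set there is 1 WT library, with 96.4, and the 7 mutant libraries lay between 91.6 and 96.7.

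The order of strength among RAD21 sites held in the mutants. Of 1997 strongest sites with a peak in every list, 835 (41.8%) were in the top 25% of common sites in all 12 mutant libraries, against 22 of 10680 others (0.206%). Each mutant library counted 1304 to 1537 of the 2000 among its own 2000 highest folds, and each WT library, which had helped to choose them, 1530 to 1607. With percentiles taken over the sites found in all lists, and sites chosen without the library read, the median was 90.2 ± 0.678 in mutants (SD, n = 12) and 90.6 ± 0.392 in WT (SD, n = 4). That difference, -0.386 points, did not pass the exact permutation test (p = 0.307).

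Site by site, limma was fitted to normal scores of the ranks of fold over all sites with a peak in every list. For CTCF (30976 sites, 1998 at the strongest RAD21 sites), no site was called in Del(CBS1) against WT at an adjusted p of 0.05 (0% of all), and 141 of the 1998 (7.06%) had an unadjusted p of at most 0.05, against 5.43% of all sites. In Del(CBS1-5) against WT 0% were called, with 45 of the 1998 (2.25%) at that unadjusted p, against 1.61% of all sites. For the slope on the number of mutated sites 0% were called, with 53 of the 1998 (2.65%), against 2.58% of all sites. The median difference over the 1998 was 0.03 normal-score units in Del(CBS1) minus WT and -0.04 in Del(CBS1-5) minus WT, against 0.01 and -0.01 over all sites, and the contrasts share the WT libraries. The Hoxd3 site had no peak in some libraries and could not enter this fit.

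For RAD21, mutants were compared with each other because the rule used WT. In Del(CBS1-5) against Del(CBS1), limma with Benjamini-Hochberg adjustment called 13 of 12932 sites (0.101%). Of the 1997 strongest, 2 were among them, 1 higher and 1 lower. An unadjusted p of at most 0.05 in this contrast was found at 233 of the 1997 (11.67%), against 12.95% of all 12932. The share at that unadjusted p was thus no higher at the strongest sites than over all sites. The slope on the number of mutated sites over the 12 mutant libraries called 0%, with 108 of the 1997 (5.41%) at an unadjusted p of at most 0.05, against 6.44% of all 12932. With the 2 sets of libraries as a covariate the slope called 0 of the 1997, and the same 2 sites were called in the contrast (Robo2, adjusted p = 0.0218; Tigd2, adjusted p = 0.0201). The count of 2 was 0 without Del(CBS1) replicate 3 or without Del(CBS1-5) replicate 2. It was 1 without Del(CBS1) replicate 2, 6 without WT replicate 1 and 26 without Del(CBS1-5) replicate 1.

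The site that was higher lay within Robo2 (chr16:74801480, rank 1092), which encodes a receptor for Slit in axon guidance. Its RAD21 fold was 16.3 and 14.5 in Del(CBS1-5), against 8.91, 9.32 and 11.6 in Del(CBS1). In WT it was 12, 13.6, 12.7 and 17.4. By percentile it was 97.9 and 98.5 in Del(CBS1-5), against 72.8, 74.4 and 83.7 in Del(CBS1), and WT had 89.5 to 98.0. The difference of Del(CBS1-5) minus Del(CBS1) was 1.87 ± 0.365 normal-score units (SE, limma, adjusted p = 0.0242). In Del(CBS1) all 3 percentiles lay below the WT ones, but the rule used the WT values, so nothing is read from that. Among mutant libraries the low ones were the 3 of Del(CBS1) and Del(CBS1-3) replicate 2, at a percentile of 74.3 beside 95.4 in replicate 1. CTCF there was also low in libraries of the same genotype and number, which the labels do not tie to those of RAD21. Its percentile within the list was 80.1, 72.3 and 69.9 in Del(CBS1), with 69.0 for Del(CBS1-3) replicate 2, against 91.7 to 99.5 in each other library, WT included. The CTCF site there was not called in Del(CBS1) minus WT (-1.34 ± 0.330 normal-score units, SE, limma, adjusted p = 0.771).

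The site that was lower lay 28327 bp from Tigd2 (chr6:59180543, rank 1793). Its RAD21 fold was 11.0 and 6.54 in Del(CBS1-5), against 12.9, 17.3 and 16.2 in Del(CBS1). In WT it was 12.9, 11.6, 11.3 and 15.2. The difference was -1.72 ± 0.326 normal-score units (SE, limma, adjusted p = 0.0181). Its RAD21 percentile was 80.8 and 51.4 in Del(CBS1-5), against 90.6 or more in each other library. CTCF percentiles there were 90.2 and 85.3 in Del(CBS1-5), against 90.5, 88.1 and 72.8 for Del(CBS1) libraries. In WT they were 84.2, 81.2 and 92.9, so the groups overlapped for CTCF.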

How the data were processed

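The 30 peak lists were deposited by the authors, 1 per library on mm10. MACS2 2.1.1.20160309, Bowtie2 2.3.5, cutadapt 1.16, bedtools 2.27.1, Picard 2.19.0 and SAMtools 1.9 are named, per the submitters' processing notes, and their options are not given in the sources used here. The deposited lists give each peak a fold enrichment (a ratio over the library's local background), a -log10 p, a -log10 q and a display score. As lists were called separately, tests used fold only as a rank or percentile within a list, with 0 where no peak covered the site, and folds are printed as description. A summit is the peak start plus its offset, and positions count from 1.

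Sites were compared over libraries by exact permutation and, site by site, with limma 3.58.1 in R 4.3.3 (trend and robust fitting, all libraries of the antibody, Benjamini-Hochberg at 0.05). Other work used Python 3.11.15, pandas 2.3.3, numpy 2.4.6, scipy 1.17.1 and matplotlib 3.10.9. Site calling, the choice of sites, the exact permutation tests and the limma fit were tested on simulated data. Gene spans and promoter sequence are RefSeq's (GRCm38.p6), and chromosome 18 has no promoter table here. Named sites are the first 15, the 5 on each side of the border, up to 4 per gene list, those in the HoxD window, those with the largest CTCF distance, found in the fewest mutant lists or called, and the 3 longest runs. Members and lists were chosen with earlier results of these data known.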

Additional observations from a re-analysis of the deposited data

Results flagged for a closer look

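In the choice that left out each WT library in turn, RAD21 was found at 99.55% of the strongest sites in WT replicate 4 and at 100% in WT replicates 1 to 3, so that library lay far from the other 3. The 9 sites it lacked are the tRNA sites described above. Among 4 WT RAD21 libraries, the fold of 4 named sites also had 1 library far from the other 3. It was 18 in WT replicate 1 at Aida, against 24.1 to 25.1 in the others. At Gm1604a it was 21.3 in WT replicate 1, against 30.2 to 31.7. At Chl1 it was 32.8 in WT replicate 1, against 26.8 to 27.7. Beside n-TLtag1 it was 17.6 in WT replicate 4, against 11.6 to 12. Folds here are on each list's own scale: at Aida, Gm1604a and Chl1 the percentile was 99.78 or more in all 4 libraries. In all, 50 quantities were examined and 5 stood out, and chance gives about 1 in 20.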

How the results depend on the processing

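Over 12 results, 182 values were recomputed under other settings, and 161 stayed with the reported value: tests by direction and side of the threshold, counts within 1.5 times, and other values within the spread of WT lists or the 95% interval. One of these, the detection difference without WT replicate 3, was 0 and has no direction. The CTCF difference was 16.6 points in the WT libraries alone (exact permutation test, p = 0.25) and 17.2 to 18.1 without each replicated library. Its size depended on the scale, at 14.8 with ranks of -log10 p and 40.3 with percentiles over RAD21 sites that had CTCF in all 14 lists, a setting chosen after seeing the data. The median summit distance was 18 bp for the 4000 strongest sites and 17 to 18 bp without each WT library. The CTCF share was 99.45% to 100% without each WT library, the lowest without RAD21 WT replicate 4. A gene start lay within 500 bp at 3.96% and within 2 kb at 8.49% of the sites, by construction of the distance, and the share within 1 kb was 5.05% to 5.99% without each WT library. Without single libraries the percentile difference of mutants and WT ran from -0.968 to 0.126 and the detection difference from -0.493 to 0.101. The percentile difference was 0.126 without WT replicate 2, 0.0723 without Del(CBS1-5) replicate 2 and 0.258 within the first set of libraries, and the detection difference was 0.101 without WT replicate 1. The cause was not tested. In Del(CBS1-5) against Del(CBS1), RAD21 calls among the strongest sites were 2, 1 without trend and robust fitting, 16 with ranks of -log10 p (96 over all sites) and 0 to 26 without single libraries. CTCF calls were 0 in Del(CBS1) against WT, and 1 without Del(CBS1) replicate 1. Ranked by -log10 p, 1568 of the 2000 sites were the same, and 1780 to 1895 were when a WT list was left out. Same-numbered Del(CBS1) and WT libraries had deviations that correlated at 0.0256 to 0.266 for CTCF and 0.0625 to 0.275 for RAD21, so numbers are not taken to pair libraries. With the replicate block the calls were 2 for RAD21 and 0 for the CTCF contrasts and both slopes. By the deviations alone, without the block, 5 of 6 RAD21 and 4 of 6 CTCF libraries correlated best with their own number, a hint from the data only. Depth is unknown, and a missing peak means only that none was called.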

Other observations

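RAD21 peaks covered 191, 20 and 15 of the 391 autosomal tRNA genes in Del(CBS1) replicates 1, 2 and 3, 263 and 262 where 2 sites were mutated, 268 and 12 where 3 were, 19 and 30 where 4 were, 6 and 6 where 5 were, 181 in Del(CBS2), and 214, 258, 262 and 18 in WT. The replicates of Del(CBS1), of Del(CBS1-3) and of WT thus differed among themselves, while both libraries of Del(CBS1-4) and of Del(CBS1-5) were low. The median fold of the tRNA peaks was 4.84 to 7.89 in the 8 libraries with the most. At the 9 strong sites, fold was 8.63 to 16.7 in Del(CBS1) replicate 1, 12.4 to 19.6 in Del(CBS1-3) replicate 1 and 5.11 to 12.6 in Del(CBS2). Among the 8 low libraries, Del(CBS1-5) replicate 1 had 1 of the 9, with a fold of 4.55, and the other 7 had none. A comparison of Del(CBS1-4) or Del(CBS1-5) with WT at such sites cannot be told apart from this difference between libraries, other than against WT replicate 4.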
